A study of Mus musculus with 24 samples.

Results

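The comparison described here is that of NIH 3T3 cells expressing TAZ4SA with the same line carrying the empty vector (EV), with 3 RNA-Seq libraries in each group, or 6 of the 24 NIH 3T3 libraries and 2 of the 8 groups that were analysed. NIH 3T3 is an immortalized mouse fibroblast line. TAZ4SA is a Flag-tagged TAZ in which the serines phosphorylated by the LATS kinases are replaced by alanine, and the species of its coding sequence was not given in the sources used here. It was introduced with a retroviral vector under neomycin selection, so that each TAZ4SA library came from a pool of stably selected cells and not from a clone, and EV cells went through the same procedure with the vector alone. The cells of both groups were collected 48 h after they had reached confluence. The test covered the 14361 genes that averaged 5 counts or more across the 24 libraries. The question was which programs the activated TAZ raised and lowered in cells at a density at which endogenous TAZ is normally held in check. Other groups that appear below are YAP5SA (YAP with its LATS-target serines changed to alanine) and TAZ-CAMTA1 (a fusion of the N-terminal part of TAZ to CAMTA1), which had also been confluent for 48 h, and EVsub (empty vector cells labelled sub-confluent).

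TAZ, encoded by Wwtr1, and its paralog YAP are transcriptional coactivators without a DNA-binding domain of their own. In crowded cells the MST kinases (Stk4, Stk3) activate the LATS kinases (Lats1, Lats2), which phosphorylate TAZ and YAP, so that both are retained in the cytoplasm and degraded. When this Hippo pathway is off, TAZ enters the nucleus and binds TEAD transcription factors, and genes such as Ccn2 and Ankrd1 are among the best known targets of the complex.

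Expression is given as CPM, counts scaled to a common library size with TMM normalization, in the order of replicates 1, 2 and 3. Log2 fold changes are TAZ4SA against EV unless another contrast is named, are given with their standard error (SE), and come from the quasi-likelihood test of edgeR, with p-values adjusted by Benjamini-Hochberg over all genes tested. A gene is called higher or lower at an adjusted p under 0.05. TAZ4SA replicate 2 had the smallest library (16471181 counts) and the largest share of its counts in its 50 most abundant genes, 24.2% against 21.1% and 17.9% in the other TAZ4SA libraries and 17.6 to 18.1% in EV. The 3 TAZ4SA libraries correlated with each other at r = 0.9682 to 0.9836 on the log2 CPM scale across genes, and the EV libraries at 0.9868 to 0.9945. Mitotic genes were uneven within EV, where their summed level was 1767 CPM in replicate 2 and 848 and 895 in the others. Where leaving out 1 library moved a list's count or median by over 1.5 times, the values without it are given beside that list.

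As a check of the cell line, the fibroblast genes Col1a1, Col1a2, Col3a1 and Vim were abundant in all 6 libraries. Being abundant in both groups, they cannot check which construct a library carried. They belong to a list of 12 fibroblast markers, of which 6 were called lower and 2 higher (median -0.89). Col1a2, for example, encoding a chain of type I collagen, had 7340, 8560 and 8120 CPM in EV and 6020, 7600 and 5790 in TAZ4SA, and was not called (log2 fold change -0.31, SE 0.20, adjusted p = 0.195, edgeR). Wwtr1 (ENSMUSG00000027803) had 130, 137 and 136 CPM in EV and 164, 171 and 152 in TAZ4SA. All TAZ4SA values lay above all EV values, but the rise was small (0.28, SE 0.09, adjusted p = 0.0113, edgeR) and was not called when counts were scaled by library totals alone (adjusted p = 0.352, edgeR). How far the introduced coding sequence is counted on the mouse gene is not known, so this is a weak check of the label. Each construct was transduced in triplicate, and p-values measure the spread between such pools of 1 cell line.

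The difference between the groups was broad. In TAZ4SA cells 31.1% of the genes tested were called higher and 26.4% were called lower, 57.5% in all, and the libraries of the 2 groups did not overlap for 56% of genes. Each count below is therefore to be read against these shares. The median log2 fold change over all genes was 0.05, the median rise among called genes was 0.88 and the median fall was -0.87. Rises were the longer tail, since 344 called genes rose by at least 3 on the log2 scale and 173 fell by at least as much. The split between directions depended on scaling, with 54.1% of called genes higher under TMM and 41.9% when only library totals were used, a scaling that moved the median of all genes from 0.049 to -0.125. Because each value is relative to the library, and the cells were lysed in bulk, a change in RNA per cell and a change in the mixture of cells cannot be told apart.

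**Figure D1:**
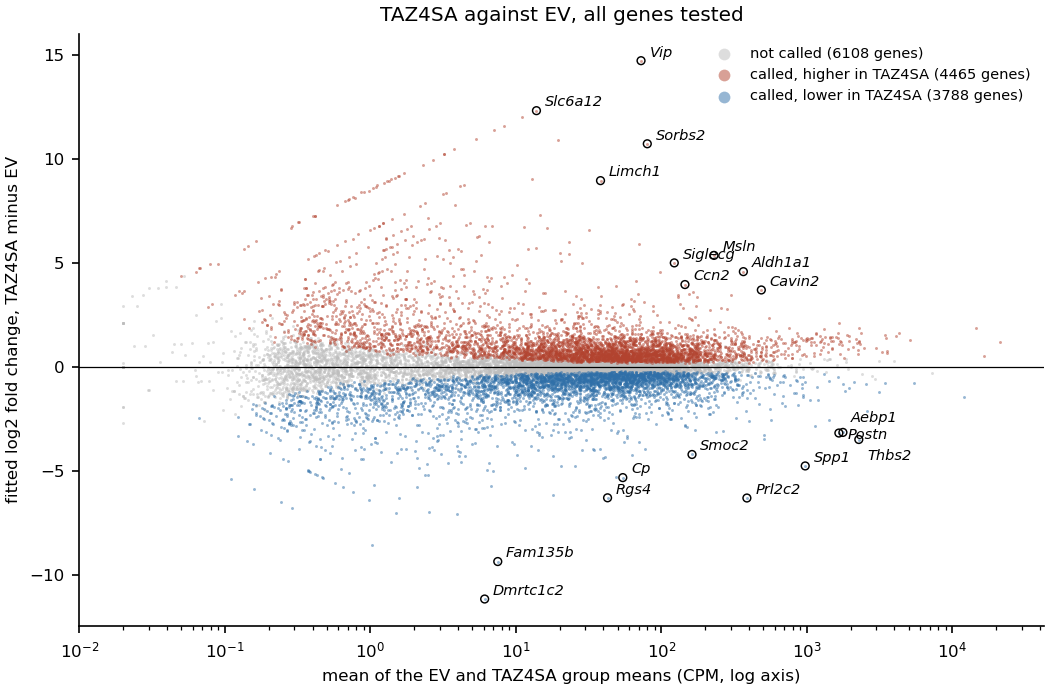
Fitted log2 fold change of TAZ4SA against EV (vertical axis) for the 14361 genes tested, against the mean CPM of the 2 groups (horizontal log axis), with the calls by direction in colour. The points spread to both sides at every level of expression, with 4465 genes called higher and 3788 lower, and with only library totals as scaling the called genes were 3424 higher and 4747 lower.

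Known targets of the TAZ/YAP-TEAD complex were mostly higher. Of 23 genes listed, 21 were tested, 11 were called higher and 5 lower, with a median log2 fold change of 0.71 against 0.05 over all genes. The largest rise was that of Ccn2 (ENSMUSG00000019997, mm10 chr10:24595442-24598683), which encodes a secreted matricellular growth factor also known as CTGF, with 14.6, 18.3 and 19.9 CPM in EV and 174, 208 and 437 in TAZ4SA. Every TAZ4SA library lay far above EV, replicate 3 highest, for a log2 fold change of 3.96 (SE 0.43, adjusted p = 9.91e-08, edgeR). Ccn2 shares exonic sequence with Gm15270. Ankrd1 (ENSMUSG00000024803, chr19:36111961-36120099), a cardiac ankyrin repeat protein, stood at 15.7, 31.5 and 18.6 CPM in EV and 171, 171 and 374 in TAZ4SA, a rise of 3.45 (SE 0.33, adjusted p = 2.34e-08, edgeR) in which TAZ4SA replicate 3 was again the highest. Ccn1 (ENSMUSG00000028195, chr3:145646976-145649981), the matricellular protein CYR61, had 42.9, 63.8 and 61.5 CPM in EV against 299, 490 and 337 in TAZ4SA (2.74, SE 0.38, adjusted p = 3.23e-06, edgeR), with no overlap between groups.

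Promoter sequences are shown for the listed targets with the largest rises among those that hold the 6-base core of the TEAD-binding motif. The core is GGAATG or its reverse complement CATTCC. The sequences are the 250 bases before the RefSeq start of each gene (GRCm38.p6, the assembly also called mm10), written 5′ to 3′ on the strand of the gene with the core in capitals. Ankrd1 lies on the minus strand at chr19:36119845-36120094 and has 2 cores, 205 and 118 bases before the start. Its RefSeq start lies inside the GENCODE gene given above, whose 5′ end is further upstream, so the window is within that longer gene model. Ccn1 lies on the minus strand at chr3:145649986-145650235 with a core 98 bases before the start, and Crim1, which encodes a transmembrane protein that binds BMPs, lies on the plus strand at chr17:78199998-78200247 with a core 74 bases before it.
Ankrd1: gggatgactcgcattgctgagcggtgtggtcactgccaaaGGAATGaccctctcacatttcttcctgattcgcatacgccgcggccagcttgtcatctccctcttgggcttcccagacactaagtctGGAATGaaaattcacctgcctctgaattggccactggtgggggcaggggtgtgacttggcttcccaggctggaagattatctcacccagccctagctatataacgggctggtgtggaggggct
Ccn1: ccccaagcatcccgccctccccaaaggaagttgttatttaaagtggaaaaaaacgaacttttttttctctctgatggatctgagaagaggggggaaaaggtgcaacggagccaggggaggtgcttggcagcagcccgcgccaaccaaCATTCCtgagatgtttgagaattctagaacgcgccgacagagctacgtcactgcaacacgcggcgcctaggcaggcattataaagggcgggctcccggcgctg
Crim1: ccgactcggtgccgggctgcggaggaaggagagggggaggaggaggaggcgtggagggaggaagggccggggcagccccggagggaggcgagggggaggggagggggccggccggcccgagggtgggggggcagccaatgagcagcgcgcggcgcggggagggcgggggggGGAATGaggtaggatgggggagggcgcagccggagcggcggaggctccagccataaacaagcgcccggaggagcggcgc
The core is common, being present in 3416 of 27025 mouse promoter windows of this length (12.6%), so a match is a description and not a bound site. Among other listed targets, Amotl2, Ajuba and Ptpn14 were called higher and had a core, while Lats2 and Gadd45a were called higher without one. Axl had a core and was not called, and F3 and Tgfb2 were called lower without one. Crim1 had 54.4, 69.9 and 60.7 CPM in EV and 168, 142 and 213 in TAZ4SA (log2 fold change 1.5), and all TAZ4SA values were above all EV values.

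Among the targets, Fjx1, Dock5 and Tgfb2 showed the largest falls. Fjx1, a secreted regulator of planar cell polarity, went from 8.82, 9.07 and 12 CPM in EV to 1.04, 1.35 and 2.55 in TAZ4SA (-2.56, SE 0.28, adjusted p = 1.39e-07, edgeR). Dock5, an exchange factor for Rac, fell by 1.48 on the log2 scale and Tgfb2, which shares exonic sequence with Gm29491, by 1.10. All 3 were lower in every TAZ4SA library than in any EV library.

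Components of the Hippo pathway itself were also altered. Of 35 tested genes of the pathway, including TEAD factors, 19 were called higher and 7 lower (median 0.31). The higher calls include Wwtr1, the gene of TAZ itself. They also include Amotl2, Ajuba, Ptpn14 and Lats2, which were counted among the TEAD targets above, so the 2 lists are not separate results. The count of 19 became 12 with library totals and 10 with only the 2 groups in the fit. Wwc1, encoding KIBRA, an upstream activator of the kinases, had 12.7, 14.2 and 14.5 CPM in EV and 53.8, 53.1 and 102 in TAZ4SA (2.34, SE 0.21, adjusted p = 6.48e-09, edgeR). Amotl2, an angiomotin that binds YAP and TAZ, rose by 1.41, and Ptpn14, a phosphatase that retains YAP in the cytoplasm, rose by 1.09 (it shares exonic sequence with Gm26574). These rises were on the inhibitory side of the pathway, and Lats2, a LATS kinase, had 52.0, 57.1 and 59.2 CPM in EV and 92.1, 92.7 and 140 in TAZ4SA. The falls included inhibitory members as well. Amot, the founding angiomotin, dropped from 276, 222 and 306 CPM to 95.4, 75.1 and 99.0 (-1.58, SE 0.13, adjusted p = 1.59e-09, edgeR). Stk3, which encodes MST2, fell by 1.17 on the log2 scale, and Tnik, a kinase related to the MAP4K family, by 0.85. Yap1, encoding the paralog of TAZ, was at 193, 170 and 189 CPM in EV and 118, 113 and 112 in TAZ4SA (-0.69), without overlap, and shares exonic sequence with Gm20416. Of the TEAD genes, Tead1 had 171, 161 and 160 CPM in EV and 262, 230 and 303 in TAZ4SA (0.69), whereas Tead4 was not called (-0.11).

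**Figure D2:**
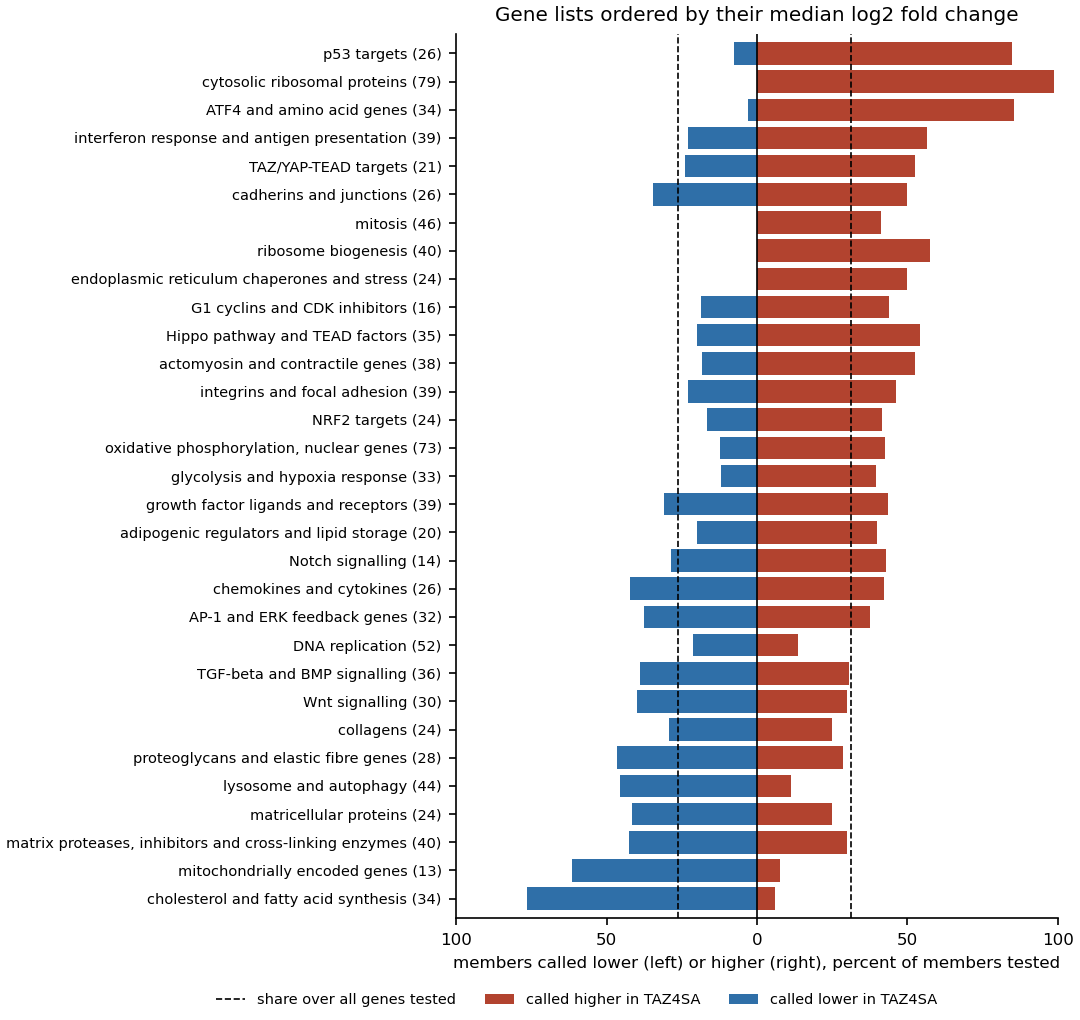
Share of the tested members of each of 31 gene lists called higher (right) or lower (left) in TAZ4SA, in percent, with the number tested in parentheses and dashed lines at the shares over all genes (31.1% and 26.4%). The lists are ordered by median log2 fold change, from p53 targets (1.81) to cholesterol and fatty acid synthesis (-1.23), and with only library totals as scaling the medians of 6 lists near 0 (glycolysis, adipogenic, chemokines, growth factors, Notch and AP-1) changed sign.

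The list with the highest median was that of p53 targets. Of 26 tested members 22 were called higher and 2 lower, and the median log2 fold change was 1.81. Both counts were the same when library totals were used as scaling. The summed level of the list was 909, 990 and 950 CPM in EV and 3054, 3495 and 2535 in TAZ4SA, so that all TAZ4SA libraries were well above all EV libraries. Cdkn1a (ENSMUSG00000023067, chr17:29090976-29100727), encoding the cyclin-dependent kinase inhibitor p21, had 60.2, 44.2 and 48.0 CPM in EV and 539, 813 and 307 in TAZ4SA (3.44, SE 0.27, adjusted p = 1.38e-09, edgeR). It shares exonic sequence with AC167363.2. Pmaip1, the pro-apoptotic BH3 protein NOXA, was near the limit of detection in EV at 0.0844, 0.286 and 0.177 CPM and reached 8.48, 4.50 and 8.49 in TAZ4SA (5.29, SE 0.46, adjusted p = 4.84e-09, edgeR). Eda2r, a death receptor of the TNF receptor family, went from 6.8, 8.45 and 4.34 to 67.1, 75.1 and 68.3 CPM (3.43). Mdm2, the ubiquitin ligase that degrades p53, stood at 55.1, 56.0 and 55.2 CPM in EV and at 248, 222 and 180 in TAZ4SA, and Bbc3, which encodes PUMA, at 6.29, 6.02 and 6.77 against 26.9, 41.5 and 23.9. The exceptions were Sesn1, a stress-induced inhibitor of mTORC1 signalling, which fell by 1.06 on the log2 scale, and Tnfaip8, an apoptosis regulator, which fell by 0.54.

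Genes that control entry into the cell cycle changed in both directions, with 7 of 16 called higher and 3 lower (median 0.31, and 0.16 without TAZ4SA replicate 3). Besides Cdkn1a, the rises were led by Myc, the growth-promoting transcription factor, at 43.1, 57.7 and 52.7 CPM in EV and 183, 212 and 231 in TAZ4SA (2.03, SE 0.16, adjusted p = 9.53e-10, edgeR). Cdkn2d, an inhibitor of CDK4 and CDK6, rose by 1.70 from below 8 CPM in every EV library. Thus an inducer of proliferation and inhibitors of the cyclin-dependent kinases were higher in the same libraries. Rbl2, encoding the pocket protein p130 that represses cell cycle genes in resting cells, fell by 0.76 on the log2 scale (it shares exonic sequence with Aktip).

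Genes of cell division were higher or not called. Of 46 mitotic genes 19 were called higher and none lower (median 0.68). Their summed level was 1325, 1515 and 2734 CPM in TAZ4SA, so that replicate 3 was above every EV library while replicates 1 and 2 lay between the EV values. The count depended on single libraries, at 11 higher and 5 lower without TAZ4SA replicate 3, 31 higher without EV replicate 2, 12 without EV replicate 1 and 11 without EV replicate 3, and the median was 0.29 without TAZ4SA replicate 3 and 1.04 without EV replicate 2. Ube2c, a ubiquitin-conjugating enzyme of the anaphase-promoting complex, had 13.0, 28.4 and 13.2 CPM in EV and 44.1, 74.3 and 69.8 in TAZ4SA (1.79, SE 0.35, adjusted p = 0.000145, edgeR), and shares exonic sequence with Tnnc2. Tpx2, a spindle assembly factor, had 26.9, 55.2 and 33.4 against 105, 97.9 and 112 CPM (1.45). Its partner kinase Aurka rose by 1.41. All 3 were higher in every TAZ4SA library than in any EV library.

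Of 52 genes of DNA replication 7 were called higher and 11 lower, with a median of -0.06. Without TAZ4SA replicate 1 or without EV replicate 2 the median turned positive (0.02 and 0.06) and the lower calls dropped to 7, as they did without TAZ4SA replicate 2. The median was -0.16 without TAZ4SA replicate 3 or EV replicate 1 and -0.13 without EV replicate 3, and 4 genes were called higher without EV replicate 1. Cdt1, which loads the replicative helicase, had 46.3, 42.3 and 52.7 CPM in EV and 92.2, 147 and 66.8 in TAZ4SA (1.11, SE 0.26, adjusted p = 0.000835, edgeR). Pold2, a subunit of DNA polymerase delta, and Rrm1, the large subunit of ribonucleotide reductase, rose by 0.88 and 0.84. In contrast Pcna, the sliding clamp of the polymerases, was lower, at 68.1, 96.6 and 74.2 CPM in EV and 39.9, 37.6 and 54.8 in TAZ4SA (-0.85, SE 0.20, adjusted p = 0.00125, edgeR). Pole2, a polymerase epsilon subunit sharing exonic sequence with Gm49384, fell by 0.93 on the log2 scale, and Mcm6, a helicase subunit, by 0.84, a call that did not hold without TAZ4SA replicate 1 (adjusted p = 0.062, edgeR).

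The most uniform change was in the cytosolic ribosomal proteins, the protein subunits of the translating ribosome. Of 79 genes 78 were called higher and none lower, with a median of 1.25, and 77 were called higher with library totals as scaling. Their summed level was 65250, 54730 and 61600 CPM in EV and 143000, 190400 and 98430 in TAZ4SA. All TAZ4SA libraries were above EV, but the spread among them was wider than the gap between replicate 3 and the EV libraries, and their order (replicate 2, then 1, then 3) was that of the share of counts in the 50 most abundant genes, whose part in the result was not tested. Rpl13a, a large-subunit protein whose exons overlap small nucleolar RNAs, had 1050, 903 and 951 CPM in EV and 3420, 5040 and 2320 in TAZ4SA (1.89, SE 0.19, adjusted p = 4.61e-08, edgeR). Rpl8 rose by 1.64 and Rpl12, which shares exonic sequence with Lrsam1, by 1.63. Ribosomal protein genes have many near-identical processed copies in the genome, and how reads with several possible origins were counted was not given in the sources used here. Their levels are therefore uncertain: Rpl24, for example, was at 0.558 CPM on average in EV.

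Genes that build ribosomes rose as well, by less. Of 40 ribosome biogenesis genes 23 were called higher and none lower (median 0.45), and 16 were called higher with library totals as scaling. The list also holds Odc1, ornithine decarboxylase, which is the first enzyme of polyamine synthesis and a textbook target of MYC. Odc1 had 64.2, 67.1 and 62.3 CPM in EV and 174, 182 and 242 in TAZ4SA (1.63, SE 0.13, adjusted p = 1.02e-09, edgeR). Noc2l, a nucleolar factor, rose by 1.56 (it shares exonic sequence with Samd11), and Nob1, the endonuclease that finishes the small-subunit RNA, by 1.20. Both had TAZ4SA values clear of every EV value.

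A second list that moved almost uniformly comprised the genes of amino acid supply and the integrated stress response, which the transcription factor ATF4 activates when protein synthesis is limited by stress. Of 34 tested members 29 were called higher and 1 lower, with a median of 1.13, and 25 were called higher with library totals as scaling. Chac1, a gamma-glutamyl cyclotransferase that degrades glutathione, had 9.37, 12.4 and 13.2 CPM in EV and 97.1, 104 and 136 in TAZ4SA (3.27, SE 0.22, adjusted p = 1.07e-10, edgeR). Trib3, a pseudokinase that feeds back on ATF4, went from 7.13, 20.2 and 8.94 to 85.3, 69.3 and 131 CPM (2.98). Cth, which makes cysteine from cystathionine, rose by 4.02 on the log2 scale, from at most 2.48 CPM in EV to 9.72, 6.75 and 53.3 in TAZ4SA, with replicate 3 far above the others. Asns, asparagine synthetase, stood at 70.6, 125 and 83.3 CPM in EV and 259, 313 and 383 in TAZ4SA. The gene called lower was Atf5, a related transcription factor (-1.03), whose exons overlap those of Il4i1 and Nup62.

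Chaperones of the endoplasmic reticulum were higher in part, with 12 of 24 called higher and none lower (median 0.39). Hspa5, the major chaperone BiP, had 705, 1110 and 775 CPM in EV and 2070, 2810 and 1390 in TAZ4SA (1.27, SE 0.23, adjusted p = 5.55e-05, edgeR), followed by Hyou1 (1.01) and the disulphide isomerase Pdia4 (0.77). The list was sensitive to processing, with 6 higher when only the 2 groups were fitted and 7 lower, beside 10 higher, when library totals were used. Without TAZ4SA replicate 2 or EV replicate 1, 2 genes were called lower, and without TAZ4SA replicate 3, 1 gene was, while the median was 0.20 without TAZ4SA replicate 2.

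**Figure D3:**
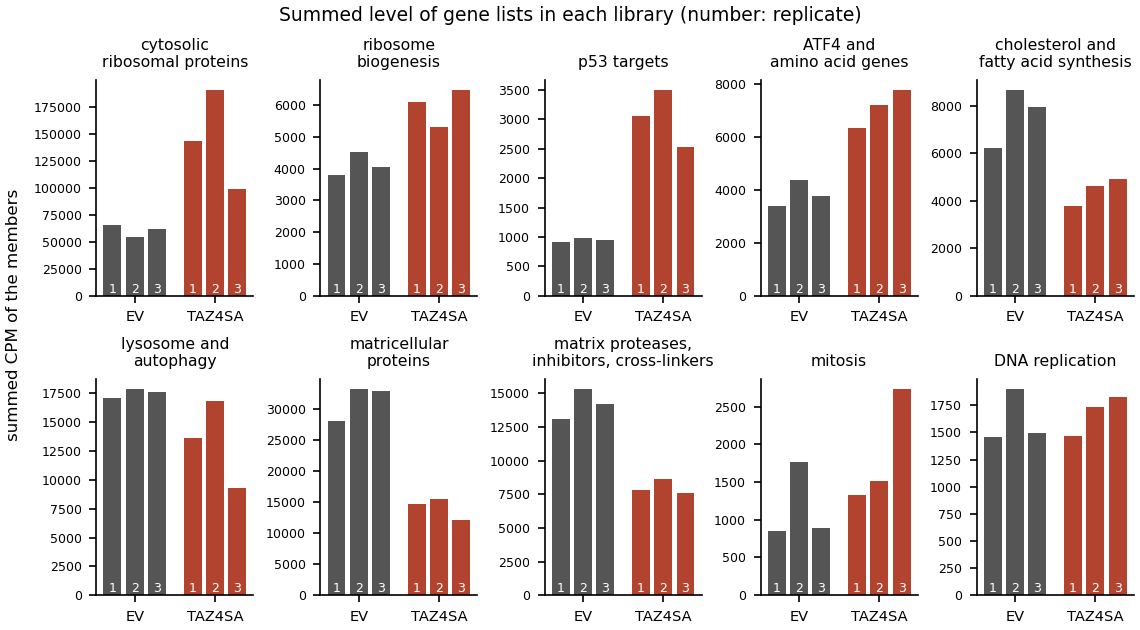
Summed CPM of all members, tested or not, of 10 gene lists in each EV and TAZ4SA library. Ribosomal protein, ribosome biogenesis, p53 and ATF4 sums were higher in every TAZ4SA library than in any EV library, cholesterol synthesis, matricellular, protease and lysosomal sums were lower in every one, and the mitotic and DNA replication sums overlapped between groups.

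The largest coordinated fall was in the synthesis of cholesterol and fatty acids. Of 34 tested genes 26 were called lower and 2 higher (median -1.23), and 30 were called lower with library totals as scaling. The summed level was 6246, 8673 and 7940 CPM in EV and 3796, 4637 and 4912 in TAZ4SA. Hmgcs1 (ENSMUSG00000093930, chr13:119690379-119708260), which makes the HMG-CoA that feeds the mevalonate pathway, dropped from 262, 431 and 423 CPM to 53.9, 45.7 and 145 (-2.18, SE 0.36, adjusted p = 2.51e-05, edgeR). Acat2, which makes acetoacetyl-CoA for the same route, went from 140, 218 and 177 to 26.7, 31.5 and 59.7 CPM (-2.18), and Elovl6, a fatty acid elongase, from 85.3, 135 and 108 to 7.79, 8.77 and 42.7 (-2.44). In all 3 the TAZ4SA libraries were below EV, and replicate 3 was the nearest to it. With TAZ4SA replicate 2 left out, 1 gene was called higher. The largest rise in the list was that of Acss2, which activates acetate (0.82, sharing exonic sequence with Gss and Ggt7).

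Genes of lipid storage and of the adipocyte lineage changed in both directions, with 8 of 20 tested called higher and 4 lower. Their median of 0.09 turned negative with library totals (-0.11), and was 0.04 without TAZ4SA replicate 1, 0.21 without TAZ4SA replicate 3 and 0.26 without EV replicate 2. Fabp5, a fatty acid-binding protein, had 62.4, 89.0 and 60.4 CPM in EV and 454, 594 and 428 in TAZ4SA (2.80, SE 0.19, adjusted p = 1.79e-10, edgeR), and its relative Fabp4 rose by 3.08 from below 2 CPM. Dgat2, which completes triglyceride synthesis, rose by 2.45. The falls were in markers of preadipocytes and of the mesenchyme. Ebf1, an early adipogenic transcription factor, dropped from 121, 98.5 and 136 to 24.4, 19.9 and 22.6 CPM (-2.41, SE 0.18, adjusted p = 6.82e-10, edgeR), Dlk1, the preadipocyte factor, from 1560, 896 and 1650 to 407, 508 and 234 (-1.84), and Pdgfra, a PDGF receptor, from 1210, 1190 and 1180 to 544, 550 and 406 (-1.26).

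Respiratory chain genes had medians of opposite sign by genome, although the nuclear median was only 0.06 with library totals. Of 73 nuclear genes of oxidative phosphorylation 31 were called higher and 9 lower (median 0.26), a count that became 20 higher and 17 lower with library totals, 12 higher with only the 2 groups in the fit and 17 higher without TAZ4SA replicate 2, while the lower count was 5 without TAZ4SA replicate 1 and the median was 0.11 without TAZ4SA replicate 2. Atp5d, an ATP synthase subunit, had 147, 153 and 153 CPM in EV and 261, 462 and 279 in TAZ4SA (1.15, SE 0.15, adjusted p = 1.15e-06, edgeR) and shares exonic sequence with Cbarp. Cox5a of cytochrome oxidase rose by 0.95. Among the falls were Ndufb7 at -1, Ndufb2, which overlaps Braf, at -0.94 and Ndufa5 at -0.76. These encode subunits of complex I, but the list was not split by complex. Of the 13 protein genes of the mitochondrial genome, 8 were called lower and 1 higher (median -0.77). Their summed level differed less, at 35360, 38340 and 37730 CPM in EV and 31560, 35340 and 30210 in TAZ4SA. TAZ4SA replicate 2 was thus just below EV replicate 1. mt-Nd5, a complex I subunit that overlaps mt-Nd6 on the other strand, had 4090, 4730 and 4260 CPM in EV and 1570, 2030 and 2100 in TAZ4SA (-1.20, SE 0.15, adjusted p = 5.59e-07, edgeR). mt-Co1 moved the other way (0.53), a call that was lost with only the 2 groups in the fit (adjusted p = 0.173, edgeR).

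Glycolytic and hypoxia-response genes had 13 of 33 called higher and 4 lower (median 0.18, -0.02 with library totals, and 0.27 without TAZ4SA replicate 3). Pfkfb3, which makes the allosteric activator of phosphofructokinase, rose from 9.46, 9.07 and 11.5 CPM to 42.2, 69.9 and 18.8 (2.12, SE 0.32, adjusted p = 7.95e-06, edgeR), Pfkp, the platelet phosphofructokinase, by 1.73 (it shares exonic sequence with Pitrm1) and Egln3, a HIF prolyl hydroxylase, by 1.66. Pdk1, which keeps pyruvate out of the citric acid cycle, fell from 48.2, 55.2 and 46.5 to 16.8, 16.5 and 23.5 CPM (-1.39), the histone demethylase Kdm3a fell by 0.96 on the log2 scale and the mitophagy receptor Bnip3 by 0.67. Pdk1, Kdm3a and Bnip3 are usually induced in hypoxia together with Egln3, so members of the list that often move together went opposite ways.

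Among 24 NRF2 targets, which respond to oxidants, 10 were called higher and 4 lower (median 0.27), with 2 lower without TAZ4SA replicate 1. Tkt, transketolase of the pentose phosphate pathway, had 111, 118 and 104 CPM in EV and 260, 403 and 248 in TAZ4SA (1.45, SE 0.15, adjusted p = 6.85e-08, edgeR). Abcc1, an exporter of glutathione conjugates, rose by 1.43 and malic enzyme Me1 by 1.31. The glutathione transferase Gsta4 fell by 0.91 on the log2 scale, and small falls of Pgd (-0.38) and Keap1 (-0.38) were called, that of Keap1 not under every alternative.

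Lysosomal and autophagy genes were lower on balance, with 20 of 44 tested called lower and 5 higher (median -0.26). Without TAZ4SA replicate 3 the number called higher was 10 and the median -0.09, without TAZ4SA replicate 2 the median was -0.42, and with only the 2 groups in the fit 3 were higher and 13 lower. Gpnmb (ENSMUSG00000029816, chr6:49036546-49070929), a transmembrane glycoprotein of lysosome-related organelles, dropped from 71.2, 51.9 and 67.7 CPM to 5.36, 4.35 and 2.86 (-3.94, SE 0.30, adjusted p = 6.49e-10, edgeR). Ctsk, the collagen-degrading cathepsin K, went from 30.5, 48.5 and 31.7 to 4.22, 6.22 and 6.38 CPM (-2.72). Mitf, a transcription factor of the MiT family that activates lysosomal genes, went from 50.5, 55.1 and 50.1 to 5.95, 8.84 and 11 CPM (-2.59). Its relative Tfeb was called higher, although by less, at 6.50, 5.30 and 5.97 CPM in EV and 9.38, 14.4 and 8.40 in TAZ4SA (0.84). Sqstm1, the autophagy receptor p62, rose by 0.88 (it shares exonic sequence with Mrnip) and Uvrag by 0.76.

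**Figure D4:**
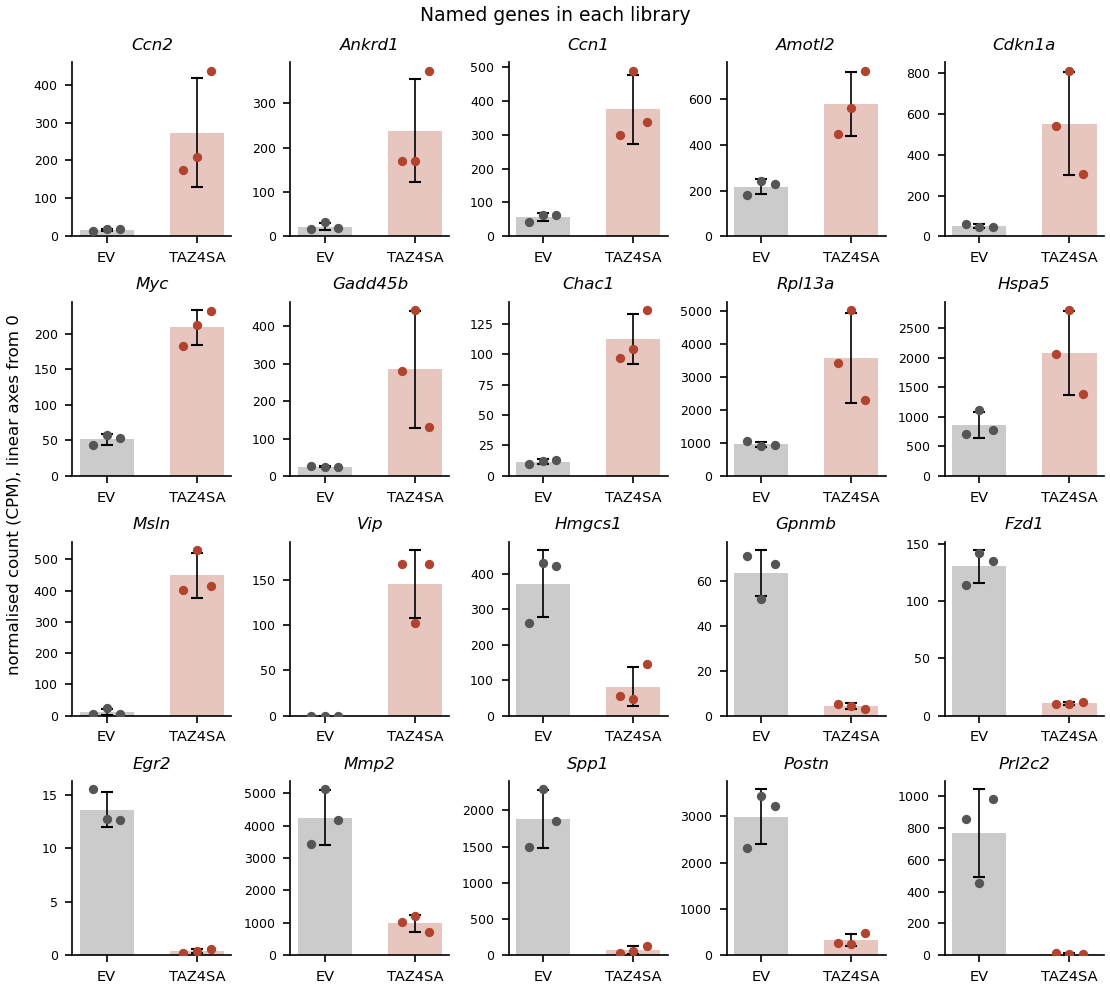
CPM of 20 named genes in each EV and TAZ4SA library (points), with bars at the mean of 3 libraries and error bars of 1 SD. TEAD targets, Cdkn1a, Myc, stress genes, Msln and Vip were higher in every TAZ4SA library than in any EV library, and Hmgcs1, Gpnmb, Fzd1, Egr2, Mmp2, Spp1, Postn and Prl2c2 were lower in every one.

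Secreted matricellular proteins, which modulate adhesion without forming fibres, changed in both directions and by large amounts. Of 24 tested, 10 were called lower and 6 higher (median -0.36, and -0.22 without TAZ4SA replicate 2), and the summed level of 27990, 33140 and 32930 CPM in EV compared with 14720, 15540 and 12120 in TAZ4SA. Spp1 (ENSMUSG00000029304, chr5:104435118-104441050), osteopontin, dropped from 1490, 2290 and 1860 CPM to 28.9, 52.8 and 127 (-4.75, SE 0.41, adjusted p = 5.06e-09, edgeR) and shares exonic sequence with Gm42793. Smoc2, a calcium-binding matrix protein, went from 313, 277 and 333 to 16.6, 21.5 and 12.6 CPM (-4.20). Ccn3, of the same family as Ccn1 and Ccn2, was low in EV, at 5.87, 4.34 and 4.73 CPM, and lower still in TAZ4SA (-3.85), so members of the CCN family went opposite ways. Thrombospondins did so too. Thbs2 fell from 3160, 5480 and 3900 to 396, 489 and 238 CPM (-3.48), while Thbs1 stood at 407, 869 and 606 CPM in EV and at 3600, 2430 and 2090 in TAZ4SA. Periostin (Postn), which binds collagen, dropped from 2320, 3430 and 3220 to 260, 251 and 484 CPM (-3.17, SE 0.44, adjusted p = 2.54e-06, edgeR). Vtn, vitronectin, had 1 count in each EV library and 3.77, 7.87 and 5.15 CPM in TAZ4SA, a ratio of 119 with a 95% counting interval of 40.2 to 579.

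Proteases, inhibitors and cross-linking enzymes of the matrix had 17 of 40 called lower and 12 higher (median -0.41, and -0.25 without EV replicate 2). Mmp2 (ENSMUSG00000031740, chr8:92827291-92853420), gelatinase A, was abundant in EV at 3430, 5120 and 4180 CPM and had 1010, 1220 and 712 in TAZ4SA (-2.11, SE 0.25, adjusted p = 3.97e-07, edgeR). The other gelatinase, Mmp9, fell from 20.8, 23.1 and 14.4 to 1.09, 1.57 and 0.616 CPM (-4.22), and the metalloprotease Adam12 by 1.62 on the log2 scale. Higher were the membrane-bound Mmp16 (6.02, from at most 0.296 CPM) and Adamts9 (3.00), the latter at 2.07, 3.25 and 2.21 CPM in EV and 20.3, 14.4 and 25.3 in TAZ4SA.

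Collagens gave no common direction, with 6 of 24 tested called higher and 7 lower (median -0.14). The median was -0.09 without TAZ4SA replicate 2, -0.25 without EV replicate 1 and -0.24 without EV replicate 3. Col5a2, a chain of the fibril-initiating type V collagen, went from 478, 753 and 517 to 1730, 1890 and 2520 CPM (1.81, SE 0.21, adjusted p = 2.14e-07, edgeR), with Col4a5 of basement membranes (1.47) and Col5a3 (1.47) also higher. Col27a1 (-2.31), Col16a1 (-1.60) and Col6a3 (-1.50) were lower, the last at 672, 599 and 680 CPM in EV and 228, 188 and 273 in TAZ4SA. The main fibrillar chain genes Col1a1 (-0.34) and Col3a1 (-0.56) were not called. Proteoglycan and elastic fibre genes had 13 of 28 tested called lower and 8 higher (median -0.14), and 4 were called higher with library totals. The median was -0.44 without TAZ4SA replicate 3, -0.23 without TAZ4SA replicate 2, -0.29 without EV replicate 1 and -0.24 without EV replicate 3, and it was -0.73 over the members with at least 10 counts in every library. Decorin (Dcn), which binds collagen and TGF-beta, dropped from 2180, 2730 and 2390 to 359, 527 and 362 CPM (-2.55, SE 0.47, adjusted p = 9.43e-05, edgeR). Ogn, osteoglycin, fell by 1.43 on the log2 scale, a call that did not hold without TAZ4SA replicate 1, TAZ4SA replicate 2 or EV replicate 2, and Mfap5 of the microfibrils by 1.27. Ltbp1, which tethers latent TGF-beta to the matrix, rose by 1.64, Prelp, a basement membrane anchor, by 1.41 and Hspg2, perlecan, by 1.05.

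Adhesion receptors changed in both directions. Of 39 tested integrin and focal adhesion genes 18 were called higher and 9 lower (median 0.27), and 14 were called lower with library totals. With at least 10 counts in every library 14 were also called lower, and the median was 0.04. The median was 0.09 without TAZ4SA replicate 3 and 0.17 without TAZ4SA replicate 1. Itgb4, the laminin-binding partner of integrin alpha 6, had 0.887, 0.716 and 1.02 CPM in EV and 11, 14.2 and 9.81 in TAZ4SA (3.72, SE 0.31, adjusted p = 2.39e-09, edgeR), Itgb7 rose by 4.30, and the adaptor Lims2 by 4.6 (it shares exonic sequence with Gpr17). Itga3, another laminin receptor chain, stood at 15.5, 15.6 and 16.6 CPM in EV and 124, 119 and 166 in TAZ4SA. Itgb8 was lower, at 24.7, 23 and 23.8 CPM in EV and 2.63, 1.65 and 5.54 in TAZ4SA (-2.81), as were Itga8 (-2.03) and Itgb3 (-1.53). These genes encode chains of receptors that bind RGD sequences, but other such chains in the list are not reported here.

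Contractile and actin-regulating genes had 20 of 38 called higher and 7 lower (median 0.28), with 11 higher when only the 2 groups were fitted. Des, the muscle intermediate filament desmin, rose by 6.08 from at most 0.169 CPM to 7.19, 8.32 and 3.87, Cdc42ep3, an effector of Cdc42, by 1.19 and the formin Diaph1 by 0.87. Synpo, synaptopodin, fell from 218, 238 and 262 to 80.1, 68.8 and 90.5 CPM (-1.58, SE 0.16, adjusted p = 5.02e-08, edgeR), and the smooth muscle genes Myl9 (-1.39) and Tagln (-1.28, sharing exonic sequence with Pcsk7) fell too. Among cadherins and junction genes 13 of 26 tested were called higher and 9 lower (median 0.69), with 5 lower without TAZ4SA replicate 1. The median was 0.24 over the 19 members with at least 10 counts in every library. Their summed level hardly differed, at 2006, 1889 and 2031 CPM in EV and 2098, 2034 and 2376 in TAZ4SA for the whole list. The gap junction gene Gja1 rose from 5.99, 13.3 and 5.97 to 34.7, 39.2 and 62.8 CPM (2.45, SE 0.32, adjusted p = 1.48e-06, edgeR), and the giant cadherin Fat1 by 1.84. The protocadherin Pcdh7 fell from 26.7, 22.1 and 31.6 to 1.93, 0.974 and 1.93 CPM (-4.00), Pcdh19 by 1.80 on the log2 scale and Cdh11, the cadherin typical of mesenchyme, by 1.46.

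The counts in the signalling lists that follow stand beside 31.1% called higher and 26.4% called lower over all genes. Of 39 growth factor ligands and receptors tested, 17 were called higher and 12 lower (median 0.13, and -0.06 with library totals). The median was 0.20 without TAZ4SA replicate 1 and 0.07 without TAZ4SA replicate 2 or 3. Kdr, the VEGF receptor, was nearly absent from EV, at 0, 0.0477 and 0.177 CPM, and had 11.2, 10.1 and 7.61 in TAZ4SA (6.91, SE 0.48, adjusted p = 1.79e-10, edgeR). Hbegf, an EGF receptor ligand, rose by 2.57, and Igfbp4, a binding protein for insulin-like growth factors, by 2.29. Igfbp5 fell from 4.35, 12.3 and 6.42 to 0.546, 0.300 and 0.308 CPM (-4.27), the MET ligand Hgf by 2.04 on the log2 scale and the FGF receptor Fgfr2 by 1.96 (it shares exonic sequence with Ctbp2). Fgfr1 stood at 1090, 1030 and 1200 CPM in EV and 327, 359 and 230 in TAZ4SA.

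In TGF-beta and BMP signalling 14 of 36 tested genes were called lower and 11 higher (median -0.06). The median was 0.04 without TAZ4SA replicate 1, 0.05 without EV replicate 3, -0.15 without TAZ4SA replicate 2, -0.01 without EV replicate 1 and -0.10 without EV replicate 2. The ligand subunit Inhba, which forms activin A, rose from 0.675, 3.58 and 1.06 to 36.5, 34.7 and 94.3 CPM (4.99, SE 0.47, adjusted p = 1.39e-08, edgeR), and its extracellular antagonist Fst, follistatin, from 1.01, 0.382 and 0.354 to 11.3, 17.5 and 7.43 (4.33). A ligand and its inhibitor were thus higher together. The receptor Tgfbr1 dropped from 68.3, 70.6 and 80.6 to 13.5, 6 and 19.5 CPM (-2.47, SE 0.24, adjusted p = 2.52e-08, edgeR). Inhibitors of differentiation, which are BMP targets, split, with Id4 higher (3.03) and Id2 lower (-2.18). Id2 in EV replicate 2 (7.5 CPM) was close to the highest TAZ4SA value of 6.67, and the other EV libraries were at 29.1 and 30.8.

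Wnt genes had 12 of 30 tested called lower and 9 higher (median -0.08, -0.13 without TAZ4SA replicate 1 and -0.14 without EV replicate 2). The receptor Fzd1 dropped from 114, 142 and 135 to 10.1, 9.74 and 12 CPM (-3.61, SE 0.20, adjusted p = 6.97e-12, edgeR), and the secreted antagonists Sfrp2 (-3.14) and Dkk3 (-2.56) fell with it. Axin2, the feedback inhibitor used as a readout of beta-catenin signalling, had 1.52, 2.29 and 1.99 CPM in EV and 1 count over the 3 TAZ4SA libraries, a ratio of 108 with a 95% counting interval of 19.0 to 4290. The ligand Wnt9a rose from 8.95, 8.88 and 6.02 to 42.5, 58.0 and 44.7 CPM (2.60), the receptor Fzd6 by 1.81 and the antagonist Dkk2 by 1.75, the last call being lost without TAZ4SA replicate 1 (adjusted p = 0.054, edgeR) or EV replicate 3 (adjusted p = 0.0655, edgeR). Of 14 Notch genes 6 were called higher and 4 lower (median 0.07, and -0.12 with library totals). The lower count was 2 without EV replicate 1 or 3, and the median was -0.01 without TAZ4SA replicate 2, 0.11 without EV replicate 2 and 0.12 without EV replicate 3. The ligand Jag1 went from 20.2, 13.6 and 19.0 to 115, 109 and 114 CPM (2.68, SE 0.25, adjusted p = 1.49e-08, edgeR), and the effector Hes1 rose by 3.37 from at most 1.53 CPM. The receptor Notch2 (-0.51) fell by a small amount.

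Immediate early and ERK feedback genes had 12 of 32 called higher and 12 lower (median 0.03, and -0.15 with library totals). The median was -0.02 without TAZ4SA replicate 2, -0.06 without TAZ4SA replicate 3, 0.07 without TAZ4SA replicate 1, 0.10 without EV replicate 2 and 0.11 without EV replicate 3. Klf4, a transcription factor induced by serum and stress, rose from 14.2, 18.9 and 16.1 to 92.9, 83.9 and 83.5 CPM (2.40, SE 0.17, adjusted p = 3.23e-10, edgeR), the MAP kinase phosphatase Dusp1 (sharing exonic sequence with Ergic1) by 2.31 and the small MAF protein Mafk (with Tmem184a) by 1.96. Egr2, induced by serum through SRF, dropped from 15.5, 12.7 and 12.6 to 0.248, 0.375 and 0.616 CPM (-4.98, SE 0.39, adjusted p = 9.10e-10, edgeR), Egr3 fell by 3.10 on the log2 scale and the ETS factor Etv5, a target of ERK, by 2.72. The AP-1 subunits Jun and Fosl1 stood at 215, 115 and 194 CPM and at 8.53, 18 and 10.9 CPM in EV, and at 65.4, 127 and 95.4 CPM and 22.1, 26.8 and 35.8 CPM in TAZ4SA.

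Interferon-response and antigen presentation genes were higher on balance, with 22 of 39 tested called higher and 9 lower (median 0.75). Their levels were low, and the summed CPM of the list overlapped between the groups (1470 to 1530 in EV and 1743, 2249 and 1355 in TAZ4SA). Ifit1, an antiviral RNA-binding protein, had 1.31, 2.10 and 2.08 CPM in EV and 7.69, 10.3 and 7.61 in TAZ4SA (2.21, SE 0.26, adjusted p = 3.90e-07, edgeR), Bst2, tetherin, rose by 1.92, and the ubiquitin-like Isg15 by 1.72. The GTPase Gbp2 fell from 31.7, 18 and 26 to 5.66, 5.7 and 5.54 CPM (-2.17, SE 0.21, adjusted p = 1.95e-08, edgeR), and Parp14 fell by 0.95 on the log2 scale. Chemokines and cytokines had 11 of 26 tested called in each direction (median 0.07, and -0.10 with library totals). The median was -0.31 without TAZ4SA replicate 3, -0.05 without EV replicate 3, 0 without EV replicate 1, 0.12 without TAZ4SA replicate 2 and 0.15 without EV replicate 2. Cxcl12, a chemokine produced by stromal cells, dropped from 775, 1130 and 906 to 85.9, 79.7 and 92.8 CPM (-3.44, SE 0.31, adjusted p = 7.77e-09, edgeR), and the monocyte chemoattractant Ccl2 from 68.1, 162 and 91.0 to 8.73, 5.70 and 15.4 (-3.39). Cxcl5, a neutrophil chemokine, rose by 1.92 and Il15 by 1.70, both to below 10 CPM.

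The largest rises of all were in genes silent in EV. Vip (ENSMUSG00000019772, chr10:5639218-5647617), a neuropeptide, had no count in any EV library and 167, 102 and 167 CPM in TAZ4SA, at least 3400-fold higher when EV is set to a floor of 3 counts over the group. On the same floor the betaine transporter Slc6a12 (38.0, 29.3 and 15.7 CPM in TAZ4SA) was at least 603-fold higher, the annexin Anxa8 (23.7, 26 and 16.8) at least 481-fold and the IL-31 receptor Il31ra (16.6, 13.3 and 20.2, sharing exonic sequence with Gm3226) at least 387-fold. Hapln1, a link protein of hyaluronan matrix, was at 10.5, 6.67 and 25.2 CPM and at least 348-fold higher, but DESeq2 did not call it (adjusted p = 0.0591). The chemokine Ccl20 (4.47, 8.17 and 19.3 CPM) was at least 254-fold higher, Arhgap36, a RhoGAP family protein, at least 172-fold and Crybg2, which overlaps Cd52, at least 151-fold. None of these 8 genes had a count in EV. Upk1b, a uroplakin of the bladder lining, had 1 EV count and 42.6, 37.7 and 36.6 CPM in TAZ4SA, a ratio of 2620 (95% counting interval 470 to 104000), and Ptprq, a receptor phosphatase, a ratio of 609 (208 to 2960). Sorbs2, a cytoskeletal adaptor, went from 0, 0.286 and 0 to 191, 119 and 171 CPM (10.72, SE 0.56, adjusted p = 4.35e-12, edgeR, sharing exonic sequence with the antisense gene Sorbs2os), and Limch1, an actin-associated protein, from 0.0844, 0.286 and 0.0885 to 75.5, 72.3 and 81.0 (8.95). In all, 105 genes had no more than 3 counts in every EV library and at least 1 CPM in TAZ4SA, 31 of them with no EV count, and 23 genes showed the reverse.

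Abundant transcripts rose too. Msln (ENSMUSG00000063011, chr17:25748613-25754378), the surface glycoprotein mesothelin, had 3.72, 23 and 6.33 CPM in EV and 401, 531 and 415 in TAZ4SA (5.36, SE 0.52, adjusted p = 2.51e-08, edgeR). Siglecg, a sialic acid-binding lectin known from B cells, went from 6.42, 9.79 and 6.11 to 243, 279 and 191 CPM (5), and Aldh1a1, which makes retinoic acid, from 19.1, 48.6 and 20.9 to 645, 901 and 563 (4.58). Cavin2, a coat protein of caveolae, rose by 3.70 to 606, 751 and 1350 CPM, and Gadd45b, a stress-induced gene of the GADD45 family, by 3.52 to 281, 443 and 131. Apart from Gadd45b in replicate 3, where the rise was smallest, and Cavin2, where it was largest, the TAZ4SA libraries were close to each other.

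Among the largest falls, Dmrtc1c2 had 8.78, 15.5 and 12.4 CPM in EV and no count in TAZ4SA, at least 226-fold lower. It and Dmrtc1c1 (ratio 141, 95% counting interval 38.6 to 1170) are near-identical copies, so reads may have been split between them. Fam135b, at 23.3, 3.49 and 18.2 CPM in EV, had 1 count over the TAZ4SA libraries (ratio 867, 155 to 34300), and the asparaginase Aspg gave a ratio of 147 (50.1 to 716). Prl2c2, a proliferin with near-identical paralogs, dropped from 857, 455 and 984 to 16.6, 6.30 and 6.11 CPM (-6.29, SE 0.51, adjusted p = 1.84e-09, edgeR). Rgs4, which dampens G protein signalling, went from 117, 22.5 and 113 to 0.843, 0.974 and 1.36 CPM (-6.28), the engulfment receptor Megf10 from 37.5, 25.7 and 43.8 to 0.794, 0.225 and 0.396 (-6.16), and ceruloplasmin (Cp, overlapping Hps3) from 57.4, 178 and 82.3 to 1.69, 2.70 and 3.56 (-5.31). Trabd2b, a membrane protease that inactivates Wnt proteins, fell by 5.28 on the log2 scale, the plexin domain protein Plxdc1 by 5.71 and osteoprotegerin (Tnfrsf11b) by 5.18. EV replicate 2 was the lowest EV library for Fam135b, Prl2c2 and Rgs4 and the highest for Cp, but it was far from TAZ4SA for each. Abundant genes that fell included Steap3, an iron reductase, from 1080, 630 and 1060 to 86.2, 130 and 70.2 CPM (-3.28), and Aebp1, a secreted collagen-binding protein, from 3050, 3150 and 3360 to 303, 435 and 345 (-3.14).

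Markers of fibroblasts and of other cell types moved as follows. Of 12 fibroblast markers 6 were called lower and 2 higher (median -0.89). Fn1, fibronectin, fell from 16500, 16800 and 19100 to 6820, 7500 and 5160 CPM (-1.43), S100a4 by 2.00 on the log2 scale and Pdgfrb by 1.47, while Thy1 rose by 1.66. Of 10 leukocyte markers 5 were tested and 3 were called higher. The summed level of all 10 was 6.25 to 7.97 CPM in EV and 71.6, 63.6 and 20.9 in TAZ4SA. Most of it was Cd68, a lysosomal membrane protein of macrophages, at 56.0, 53.8 and 12.1 CPM. The defining leukocyte gene Ptprc (CD45) had 10 counts over all 6 libraries, Fcgr3 had 9, and Cd3e and Adgre1 had 0. Of 10 endothelial markers 5 were tested, 4 called higher and 1 lower, with sums of 3.68 to 5.93 CPM in EV and 10.8 to 17.8 in TAZ4SA, with 2 called higher without TAZ4SA replicate 1, while Cdh5 stayed at or below 0.300 CPM and Cldn5 had 0 counts. All 4 tested muscle markers of 10 were called higher, with a sum of at most 19.3 CPM, and Myod1 and Actc1 had 0 counts. Of 10 neural markers 5 were tested, 3 called higher and 1 lower, or 2 lower without TAZ4SA replicate 3 (at most 20.1 CPM summed), with Rbfox3 and Nefl at 0. Of 10 epithelial markers 2 were tested, Krt14 called higher and Cdh1 lower (0 lower without TAZ4SA replicate 1), with a sum of at most 2.07 CPM, and Epcam and Esrp1 had 0 counts. The part of such markers in other results was not tested.

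The same EV libraries serve as control for YAP5SA and TAZ-CAMTA1, so agreement between those contrasts is not independent, and the tests below are those of TAZ4SA directly against each group. Against YAP5SA 42.4% of genes tested were called, against TAZ-CAMTA1 54.7% and against EVsub 53.2%. The list counts below are to be read against these totals, since shares by direction over all genes are not given for these contrasts. For ribosomal proteins TAZ4SA was above YAP5SA for 3 genes and below for 1 of 79, and the medians against EV were 1.25 and 1.36. For p53 targets it was above for 3 and below for 8 of 26 (medians 1.81 and 2.09), close to the 42.4% called over all genes. TEAD targets were called lower than in YAP5SA for 8 of 21 and higher for none (medians 0.71 and 1.02), a smaller share than over all genes. Ccn1, for example, had 2130 CPM on average in YAP5SA, and Krt7, a keratin of simple epithelia that shares exonic sequence with Gm671, had 296, 203 and 243 CPM in YAP5SA but 11.1, 10.2 and 9.01 in TAZ4SA (TAZ4SA against YAP5SA -4.61, adjusted p = 6.97e-12, edgeR). Mitochondrially encoded genes were called higher than in YAP5SA for 9 of 13, nuclear respiratory genes lower for 41 of 73, lysosomal genes lower for 25 of 44 and higher for 3, and cholesterol and fatty acid genes lower for 18 of 34 and higher for none. Interferon genes were called higher in TAZ4SA for 20 of 39 and lower for 4, as for Ifit1, which had 1.13, 1.67 and 0.634 CPM in YAP5SA. Proteoglycan and elastic fibre genes were called higher for 17 of 28 and lower for 4. Dcn, at 38.1, 71.8 and 52.3 CPM in YAP5SA, lay above that in every TAZ4SA library (2.94, adjusted p = 7.00e-05, edgeR).

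The genes with the largest differences from YAP5SA included the channel protein Panx3, at 5.46, 5.47 and 14 CPM in TAZ4SA and 0.105 on average in YAP5SA (6.21), and Wfdc18, listed at 0 in all YAP5SA libraries and at 2.53, 2.25 and 2.77 CPM in TAZ4SA, whose fall against EV (-1.01, adjusted p = 0.0412, edgeR) was lost with the replicate block (adjusted p = 0.0507, edgeR) and without any library other than EV replicate 2. Pax8, a transcription factor of kidney and thyroid that overlaps Gm13415, was higher in YAP5SA (10.6 CPM on average) than in TAZ4SA (at most 0.440 CPM, TAZ4SA against YAP5SA -5.28). Vip averaged 10.8 CPM in YAP5SA, below every TAZ4SA library.

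**Figure D5:**
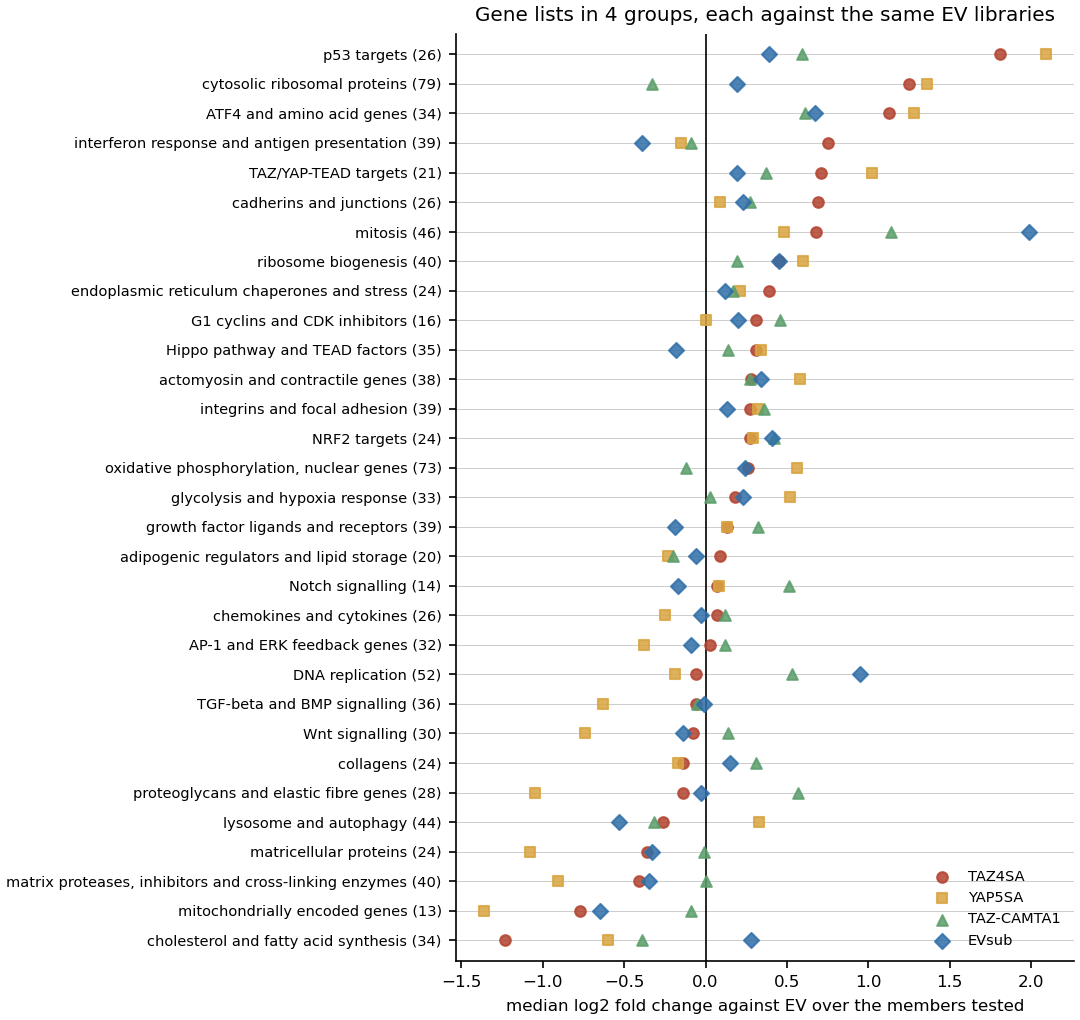
Median log2 fold change against EV of each gene list in TAZ4SA, YAP5SA, TAZ-CAMTA1 and EVsub. TAZ4SA and YAP5SA were near each other for ribosomal proteins (1.25 and 1.36), p53 targets (1.81 and 2.09) and ATF4 genes (1.13 and 1.28) and apart for lysosomal (-0.26 and 0.33) and interferon genes (0.75 and -0.15), while all 4 contrasts share the EV libraries, and the TAZ4SA medians of 6 lists near 0 change sign with library totals as scaling.

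Against TAZ-CAMTA1, ribosomal proteins were called higher in TAZ4SA for 77 of 79 and lower for none, p53 targets higher for 21 of 26 and lower for 2, and nuclear respiratory genes higher for 39 of 73 and lower for 7. Cdkn1a had 105, 115 and 110 CPM in TAZ-CAMTA1 (TAZ4SA against TAZ-CAMTA1 2.33, adjusted p = 2.78e-07, edgeR). DNA replication genes were called lower in TAZ4SA for 31 of 52 and higher for 3, cholesterol and fatty acid genes lower for 18 of 34 and higher for 2, and proteoglycan and elastic fibre genes lower for 16 of 28 and higher for 2. Vip (0.0135 CPM on average in TAZ-CAMTA1), Il31ra and Hapln1 (both listed at 0) had the largest positive differences, that of Hapln1 not being called by DESeq2 (adjusted p = 0.0589), and Dmrtc1c2, Aspg and Fam135b the largest negative ones.

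Mitotic genes were called lower in confluent TAZ4SA than in EVsub for 43 of 46 and higher for none, and DNA replication genes lower for 45 of 52 and higher for 1. Against EV their medians were 0.68 and -0.06 in TAZ4SA but 1.99 and 0.95 in EVsub. Pcna, for example, had 150, 178 and 87.6 CPM in EVsub, above every TAZ4SA library (TAZ4SA against EVsub -1.65, adjusted p = 1.26e-06, edgeR). Cholesterol and fatty acid genes were called lower in TAZ4SA than in EVsub for 32 of 34 and higher for 1, with Hmgcs1 at 525, 234 and 439 CPM in EVsub. Conversely ribosomal proteins were called higher in TAZ4SA for 77 of 79 and lower for none, p53 targets higher for 21 of 26 and lower for 2, and interferon genes higher for 25 of 39 and lower for 2. Some lists moved the same way against EV in TAZ4SA and in EVsub. Their medians were 0.45 and 0.45 for ribosome biogenesis, 1.13 and 0.67 for ATF4 genes and -0.26 and -0.53 for lysosomal genes. EVsub differs from TAZ4SA in density as well as in the protein expressed, so these factors cannot be told apart in that contrast.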

How the data were processed

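NIH 3T3 cells were transduced in triplicate with each construct, and polyadenylated RNA was sequenced as paired-end stranded libraries. The authors aligned reads to mm10 with Hisat2 within bcbio-nextgen and deposited whole-number counts per Ensembl gene for each library. The counting program, its use of strand and its treatment of reads with several origins are not given in the sources used here. Groups and replicates were taken from the sample labels. The 14361 genes that averaged 5 counts or more across the 24 libraries were fitted together with edgeR 4.0.16 in R 4.3.3 (TMM scaling, quasi-likelihood test, 1 coefficient per group), and p-values were adjusted by Benjamini-Hochberg over all of them at 0.05. The study's own differential expression used Salmon and DESeq2, and all its groups share the spread estimated here. SE is the absolute log2 fold change divided by the square root of F.

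Of 39017 identifiers 37693 were matched to GENCODE M21, which gave symbols, coordinates and overlapping exons. Genes without a count in a group were compared with a floor of 3 counts over its 3 libraries, and ratios on 1 to 3 counts carry 95% intervals that cover counting error only. RefSeq promoter windows matched 10201 of the tested genes, too few for a check over gene lists, and Ccn2 had no entry. The members, 31 program lists and 6 marker lists were chosen with earlier results of these data known. Genes were named by rule, as the 12 largest called rises and falls with at least 50 counts on average and no overlap between groups, the 8 largest with a mean of at least 200 CPM in the higher group, 3 per list and direction, 6 on-or-off genes per direction, and 3 per direction in each direct contrast, together with Wwtr1, Yap1, Ccn1, Ccn2, Ankrd1 and Amotl2. Other list members are given by value, and some genes that the rule names are not reported here. Alternatives were DESeq2 1.42.0, other scalings and filters, a fit of only the 2 groups compared, a replicate block, a fold change limit and leaving out each library. The code was tested on simulated data. Figures were drawn with matplotlib 3.10.9. Totals were 19981310 to 22419096 counts in EV and 16471181 to 21964589 in TAZ4SA.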

Additional observations from a re-analysis of the deposited data

Results flagged for a closer look

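Of 210 named genes compared, those below were called in opposite directions against EV in TAZ4SA and in another group, and the direct difference between the groups was called as well by edgeR. All share the EV libraries, and only the direct difference is a test between the groups. Single outlying samples in groups of 3 libraries were not searched for in choosing these results, although the alternatives left out each library in turn.

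Against YAP5SA there were 4 such genes. The matrix protease Adamts9 was higher in TAZ4SA by 4.40 on the log2 scale (3.00 against EV in TAZ4SA and -1.40 in YAP5SA, adjusted p = 3.55e-08, edgeR). Prelp, a basement membrane anchor, differed by 3.49 (1.41 and -2.07) and the Notch effector Rbpj by 0.84 (0.39 and -0.45). The call of Rbpj against EV was lost with library totals as scaling (adjusted p = 0.144, edgeR). Tagln, a smooth muscle actin-binding protein, differed the other way, by -2.84 (-1.28 and 1.56, adjusted p = 4.08e-07, edgeR).

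Against TAZ-CAMTA1 there were 11. The fatty acid-binding proteins Fabp4 and Fabp5 were higher in TAZ4SA by 4.97 and 4.46. The others were lower in TAZ4SA, led by Igfbp5 at -6.66 (-4.27 against EV in TAZ4SA and 2.39 in TAZ-CAMTA1, adjusted p = 1.72e-09, edgeR). The differences were -4.48 for Speer4a, a member of a family of close copies, -3.18 for Ogn, -2.78 for Pcdh19, -2.29 for Myl9, -2.01 for Gsta4, -1.11 for Tnfaip8, -0.92 for Notch2 and -0.73 for Pgd.

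Against EVsub there were also 11. The replication genes Mcm6, Pcna and Pole2 were lower in TAZ4SA than in EV but higher in EVsub than in EV, with direct differences of -2.00, -1.65 and -1.63, while the call of Mcm6 against EV was lost without TAZ4SA replicate 1 (adjusted p = 0.062, edgeR). The same held for Pcdh19 (-2.31), Myl9 (-2.20), Tagln (-2.08) and Pgd (-1.08). The opposite held for Ifit1, which was higher in TAZ4SA than in EVsub by 3.18 (2.21 and -0.97, adjusted p = 1.3e-08, edgeR), Prelp (2.81), Krt7 (2.67) and Wwtr1 (0.58).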

How the results depend on the processing

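The number of genes called between TAZ4SA and EV was 8171 to 8359 with DESeq2, RLE, upper quartile or library total scaling, 6998 with at least 10 counts in every library, 6019 with only the 2 groups in the fit, and 7485 to 8878 when 1 library was left out. With a replicate block it was 8161. Deviations of same-numbered TAZ4SA and EV libraries from their group means correlated at 0.124, -0.1 and -0.135. TAZ4SA replicate 1 correlated best with its own number and replicates 2 and 3 did not. With 3 libraries in each group, these values cannot decide whether the replicate numbers pair the samples. A further limit of 1 on the size of the log2 fold change left 3525 genes, 1943 higher and 1582 lower, and left 1739, 3019 and 2981 against YAP5SA, TAZ-CAMTA1 and EVsub. With only the 2 groups in the fit, 2910 genes were called against YAP5SA (main 6087) and 4105 against EVsub (main 7639). Leaving out 1 library gave 4656 to 7210, 6697 to 8658 and 6576 to 8419 in these contrasts. Of 3358 values of named genes under these alternatives 3296 kept their call, 62 lost it and 0 reversed, and of 1110 list counts 97 moved by over 1.5 times. With at least 10 counts in every library only 166 of 228 named gene results could be scored, and the rest are not among the 3358. Most named genes were chosen for a call without overlap between groups, which favours keeping it. With at least 10 counts in every library the medians of the adipogenic (-0.02), chemokine (-0.32) and Notch (-0.26) lists turned negative. Genes of low count and genes with near-identical copies were the least certain.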
